A study of Homo sapiens with 4 samples.

Results

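The genes described here code for 8 proteins that bind the poly(A) tail of messenger RNA or dock on the proteins that do: PABPC1, PABPC3, PABPC4, PABPN1, PAIP1, PAIP2, LARP1 and LARP4. They were chosen by gene symbol, with earlier results of this same comparison already known, and all 8 were found among the 11597 genes of the authors' deposited table. Their fold changes are therefore given as a description, and the authors' p-values for them are quoted as deposited and not as independent evidence.

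The study asked what the adaptor protein BTG2 does to mRNA stability in MOLM13 cells, an established line from an acute myeloid leukaemia. Cells of genotype BTG2 OE received a lentiviral BTG2 cDNA, and the controls, of genotype WT, received the empty vector. Both constructs shared a lentiviral backbone with an EF1α promoter, an IRES, puromycin resistance, T2A and the green fluorescent protein ZsGreen, so the controls carried the infection and the marker genes too. Poly(A) RNA was taken 3 days after transduction from 2 libraries per group, 4 in all, and since the labels do not say whether these were separate cultures, p-values measure only the spread between these libraries, which may be technical. Because poly(A) RNA was selected, a gene's count reflects its polyadenylated transcripts, and an effect on tail length cannot be told apart from one on transcript number.

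Cytoplasmic poly(A)-binding protein coats the tail of mature mRNA, holds it to the cap-binding complex through eIF4G, and sets how deadenylases reach the tail. BTG2 and its relatives TOB1 and TOB2 bring the CCR4-NOT deadenylase to mRNA, and both branches of that family contact cytoplasmic poly(A)-binding protein. PAIP1 promotes and PAIP2 represses translation through the same protein, LARP1 holds mRNAs with a terminal oligopyrimidine (TOP) start, and LARP4 protects long tails. PABPN1 acts in the nucleus, where it controls the length of new tails.

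In the authors' deposited table, PABPC1 and PABPC3 were higher with BTG2, PAIP1 and PAIP2 were lower, and PABPC4, PABPN1, LARP1 and LARP4 did not pass the authors' test. A gene is called changed here at the authors' adjusted p under 0.05. That makes 2 of 8 higher and 2 of 8 lower, beside 3.64% of all genes called higher and 4.47% called lower, 8.11% in either direction. The 2 called higher are a gene and its close copy, whose reads may be shared, so they may not be separate results. With fold changes recentred on the median abundant gene, the balance over all genes turned, from 422 higher and 518 lower to 500 higher and 433 lower. Abundant genes passed more often. All 8 had mean counts over the median of 151, and 13.6% of all genes from that median upward were called. Of the 1160 genes with the highest mean counts, which include 5 of the 8, 31.6% were called.

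PABPC3 is an intronless copy of PABPC1, described as a testis form of the protein, and it had by far the highest count of the 8. Its sequence is shown because the 2 genes can be told apart only where they differ. The 150 bases below are the ungapped stretch of the PABPC3 coding sequence with the most differences from PABPC1, 16, in the GENCODE release 29 transcripts. Capitals mark the differing bases. The stretch spans coding bases 56 to 205, within the part that encodes the first RNA recognition motif, and lies at chr13:25096254-25096403 on the plus strand of GRCh38.
PABPC3: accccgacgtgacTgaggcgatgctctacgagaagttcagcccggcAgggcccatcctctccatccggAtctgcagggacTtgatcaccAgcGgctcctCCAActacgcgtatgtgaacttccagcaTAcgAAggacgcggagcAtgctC

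The partner proteins other than LARP1 share a different feature. PAIP1, PAIP2 and LARP4 each code for a PAM2 motif, a short peptide that docks on the C-terminal MLLE domain of cytoplasmic poly(A)-binding protein, and these coding bases are shown because the motif is shared by both partners that fell and by 1 that was not called. Coding sequences were searched for 8 codons reading leucine or phenylalanine, any 2 residues, asparagine, aspartate or glutamate, then alanine, any 2 residues, and phenylalanine or tryptophan. The pattern was found in 341 (3.28%) of 10403 coding genes of the table, and in 3 of the 8 genes. LARP1 and the 4 poly(A)-binding proteins had no match to it. Because the pattern was written to describe this motif, its share among the 8 is no independent result. Capitals mark the 24 matching bases, with 12 bases on either side. They encode residues 128 to 135 of 479 in PAIP1, 111 to 118 of 127 in PAIP2 and 15 to 22 of 730 in LARP4. On GRCh38 the stretches lie at chr5:43555848-43555895 on the minus strand in exon 2 of 11 (PAIP1), chr5:139368733-139368780 on the plus strand in exon 4 of 4 (PAIP2) and chr12:50427774-50427821 on the plus strand in exon 2 of 16 (LARP4).
PAIP1: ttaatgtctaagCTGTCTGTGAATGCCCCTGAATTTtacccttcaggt
PAIP2: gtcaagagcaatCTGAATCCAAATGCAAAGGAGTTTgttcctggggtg
LARP4: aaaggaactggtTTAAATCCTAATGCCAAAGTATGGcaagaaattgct

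TOB1 and TOB2 each held 2 matches to the same pattern, and LARP4B, the closest relative of LARP4, held 1. In the authors' deposited table TOB1 had a log2 fold change of -0.19 (SE 0.12), TOB2 one of 0.13 (SE 0.13) and LARP4B one of 0.14 (SE 0.12), and none of these 3 was called. The motif thus occurs in genes called lower and in genes not called.

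BTG2 itself had a log2 fold change of 5.01 (SE 0.09) in the authors' deposited table, which checks the labels, with cDNA and endogenous reads not separated. The authors' deposited table listed all 13 myeloid markers looked up, with mean counts of 71.6 to 6315, and called 1 higher and 5 lower. That stands beside 8.11% of all genes called. Lower in the authors' deposited table were MPO (-1.14, SE 0.15), CD74 (-0.56, SE 0.05), LYZ (-0.39, SE 0.05), FCGR1A (-0.39, SE 0.10) and CEBPA (-0.26, SE 0.05). FLT3 was higher there (0.23, SE 0.07). Of 5 markers each, the authors' deposited table listed 1 B-cell, 1 T-cell, 0 erythroid and 2 epithelial genes, with mean counts up to 421. Of these 4 genes only PAX5, a B-cell factor with a mean count of 53.1, was called in the authors' deposited table, at a log2 fold change of -9.28 (SE 1.47). The part of any of these shifts in the results on the 8 genes was not tested. In bulk RNA, fewer cells of a type and less RNA per cell cannot be told apart. Single libraries were not analysed here. Errors are the authors' standard errors (SE) of the log2 fold change, and how many libraries show a direction is unknown.

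PABPC3 had a mean normalized count of 12850 in the authors' deposited table, rank 107 of all genes, which is above 99.1% of them. Its log2 fold change was 0.73 (SE 0.04, adjusted p = 2.41e-64), a 1.66-fold rise with a 95% interval of 0.65 to 0.82 on the log2 scale, and it had the fifth-smallest p in the authors' deposited table. If the deposited mean is the plain average over 4 equally weighted libraries, the 2 values place its level near 9648 in empty vector and 16051 with BTG2.

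PABPC1, the main cytoplasmic poly(A)-binding protein gene, had a mean normalized count of 2877 in the authors' deposited table. Its log2 fold change was 0.48 (SE 0.10, adjusted p = 5.93e-05), a 1.39-fold rise with a 95% interval of 0.28 to 0.67 in the authors' deposited table. On the same assumption its level went from about 2406 to about 3347. The standard error of PABPC1 was larger than those of 99% of the 200 genes nearest to it in mean count, whose median was 0.05, so PABPC1 was measured less precisely than its abundance alone would give. For PABPC3 61.5% of such neighbours had smaller errors.

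**Figure D1:**
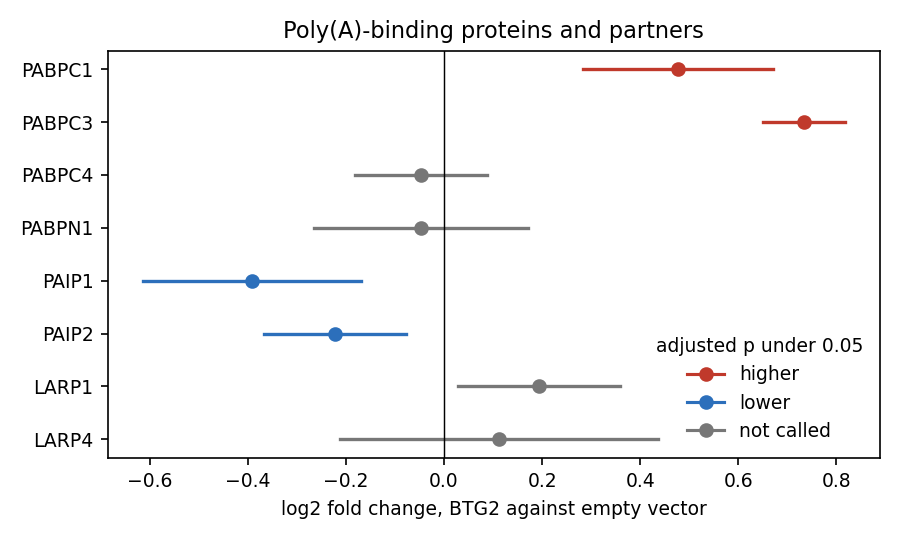
Log2 fold change of each of the 8 genes (x axis, BTG2 against empty vector) with points at the authors' estimates and bars at the 95% interval from the authors' standard error. PABPC1 and PABPC3 lie above 0 (0.48 and 0.73), PAIP1 and PAIP2 below 0 (-0.39 and -0.22), and of the 4 genes not called the bar of LARP1 alone leaves out 0.

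The copy had 4.47 times the mean count of PABPC1, although their transcripts are of like length, 3387 and 3485 bases. Per kilobase of transcript the mean count was 3794 for PABPC3 and 825 for PABPC1. Their coding sequences were identical at 95.6% of 1893 paired bases, and the encoded proteins at 93.0% of 630 paired residues. Over the PABPC3 transcript, 92.4% of the 331 bases of the 5′ UTR and 95.4% of the 1896 coding bases were identical, and 470 of the 1160 bases of the 3′ UTR lay within the alignment, 86.4% of them identical. The longest run without a difference was 144 bases, so 0 of 3238 windows of 150 bases in PABPC3 occurred exactly in a PABPC1 transcript, against 1.37% of windows of 100 bases and 6.77% of windows of 50 bases. The sources used here do not say how reads were assigned between the copies, and the part of shared sequence in either count was not tested.

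**Figure D2:**
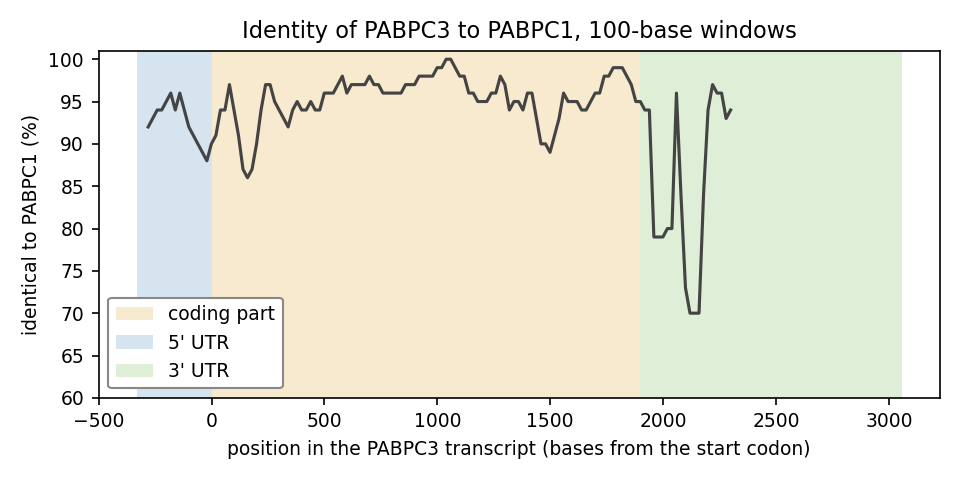
Percent of bases in PABPC3 identical to PABPC1 in windows of 100 bases (y axis, from 60%) along the PABPC3 transcript (x axis, bases from the start codon), with shading for the 5′ UTR, the coding part and the 3′ UTR. Identity reaches 100% within the coding part and falls to 70% in the 3′ UTR. The line ends where the alignment to the chosen PABPC1 transcript ends.

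Because reads of the copies may be shared, their sum was also taken. PABPC1 and PABPC3 together had a mean count of 15726, of which PABPC3 made up 81.7%. The summed level rose from about 12054 to about 19398, a log2 ratio of 0.69 or 1.61-fold, which has no test. The share of PABPC3 in it was 80.0% in empty vector and 82.7% with BTG2. The difference of their log2 fold changes was 0.26, so the fold change of PABPC3 was 1.20 times that of PABPC1. This difference was not tested.

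PABPC4, a further cytoplasmic poly(A)-binding protein, was not called. Its mean count in the authors' deposited table was 2235, close to that of PABPC1 per kilobase of transcript (812 against 825). The log2 fold change of PABPC4 was -0.05 (SE 0.07, adjusted p = 0.858) per the authors' deposited table, with a 95% interval of -0.18 to 0.09 that lies below the whole intervals of PABPC1 and PABPC3. Its coding sequence could be paired with PABPC1 over 1134 bases at 77.9% identity, and the proteins at 81.2% of 621 residues, so it is far more distinct from either gene than they are from each other. PABPC1L, a relative named for its likeness to PABPC1, had a mean count of only 16.4 and a log2 fold change of 0.43 (SE 0.65) in the authors' deposited table. Of the 13 pseudogenes named PABPC1P in GENCODE, 0 were among the listed genes.

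PABPN1, the nuclear poly(A)-binding protein, had a mean count of 725 and a log2 fold change of -0.05 (SE 0.11, adjusted p = 0.927) per the authors' deposited table, with a 95% interval of -0.26 to 0.17. It overlaps the read-through gene BCL2L2-PABPN1 on the same strand, which had a mean count of 93.8 and a log2 fold change of 0.30 (SE 0.23, adjusted p = 0.591) per the authors' deposited table. Reads of their shared exons cannot be told apart. The other 7 genes overlapped no gene of the table in GENCODE release 29.

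The PAIP genes were lower together. PAIP1 had a mean count of 398 and a log2 fold change of -0.39 (SE 0.11, adjusted p = 0.0101) per the authors' deposited table, which is 1.31-fold lower, with a 95% interval of -0.61 to -0.17. PAIP2 had a mean count of 1524 and a log2 fold change of -0.22 (SE 0.07, adjusted p = 0.0343) per the authors' deposited table, which is 1.17-fold lower, with a 95% interval of -0.37 to -0.08. The stimulator and the repressor of translation thus both declined, and by their intervals their sizes overlap. The adjusted p of PAIP2 lies near the threshold of 0.05, and that of PAIP1 just above 0.01. At a limit of 0.01 in place of 0.05 both lost their calls. With fold changes recentred on the median abundant gene PAIP2 lost its call, at a recomputed Benjamini-Hochberg adjusted p of 0.0820.

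LARP1 and LARP4 had positive estimates that did not pass. LARP1, the TOP mRNA-binding protein, had a mean count of 1047 and a log2 fold change of 0.19 (SE 0.08, adjusted p = 0.160) per the authors' deposited table. Its unadjusted p was 0.0210, and its 95% interval ran from 0.03 to 0.36. LARP4 was the least abundant of the 8, with a mean count of 236 and a log2 fold change of 0.11 (SE 0.17, adjusted p = 0.862) per the authors' deposited table. Its 95% interval ran from -0.21 to 0.44, the widest of the 8.

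**Figure D3:**
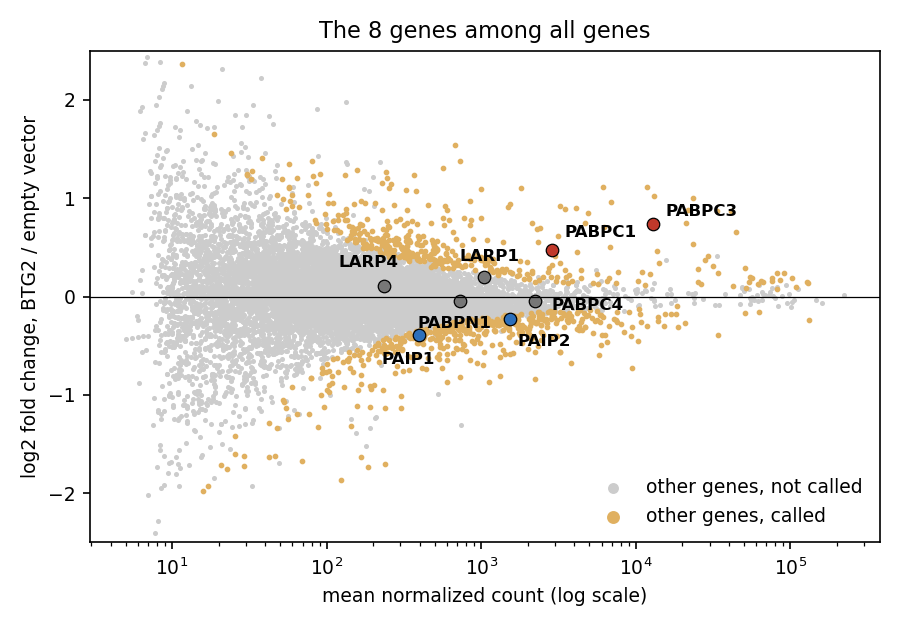
Log2 fold change (y axis) against mean normalized count (x axis, log scale) for all genes, with those called by the authors' adjusted p under 0.05 in tan and the others in grey. The 8 genes are outlined and named (red higher, blue lower, dark grey not called), PABPC3 and PABPC1 sit at the upper right at counts of 12850 and 2877, and 54 genes beyond 2.5 on the y axis are not drawn.

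Ordered by mean count per kilobase of the chosen transcript, the genes ran from PABPC3 (3794) through PABPC1 (825), PABPC4 (812), PAIP2 (663), PABPN1 (362), LARP1 (159) and PAIP1 (143) to LARP4 (58.9). PABPC1 and PABPC4 were the closest neighbours in that order, and no order could be tested. The scale depends on the transcript taken, which here was the one with the longest coding part in GENCODE release 29.

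The genes differed in structure. PABPC3 has 1 exon, as have 1.88% of 10403 coding genes, whereas the others have from 4 in PAIP2 to 19 in LARP1. Their 3′ UTRs ran from 320 bases in PABPC4 and 445 in PABPC1 to 1653 in LARP4 and 3511 in LARP1, beside a median of 977 over coding genes. Of the 2 genes called higher, PABPC1 had a shorter 3′ UTR than that median and PABPC3 a longer one (1160), and those called lower, PAIP1 (1109) and PAIP2 (922), stood on either side of it.

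In GENCODE release 29 on GRCh38, PABPC1 (ENSG00000070756) lies on the minus strand of chromosome 8 from 100685816 to 100722809 and PABPC3 (ENSG00000151846) on the plus strand of chromosome 13 from 25095868 to 25099254. PABPC4 (ENSG00000090621) lies on the minus strand of chromosome 1 from 39560816 to 39576790, and PABPN1 (ENSG00000100836) on the plus strand of chromosome 14 from 23321289 to 23326185. Of the partners, PAIP1 (43526267 to 43557758, minus), PAIP2 (139341587 to 139369720, plus) and LARP1 (154712902 to 154817607, plus) are all on chromosome 5, and LARP4 is on chromosome 12 from 50392383 to 50480004, plus. Their identifiers are ENSG00000172239, ENSG00000120727, ENSG00000155506 and ENSG00000161813 in that order.

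The other genes that act on or through the poly(A) tail were mostly not called, as were most genes. Across 8 lists of such genes, the 8 described here included, 105 genes were measured and 11 were called (10.5%). That stands beside 8.11% of all genes and 13.6% of those from the median count of 151 upward, which some listed genes fall below. Without the 8, 7 of 97 were called (7.22%), near the share of all genes. A ninth list, of TOP mRNAs and a few non-coding host genes, brought the totals to 130 measured and 21 called (16.2%). Among regulators that bind poly(A)-binding protein, 0 of the other 21 were called in the authors' deposited table, beside 8.11% of all genes. Of these 21, 1 had an unadjusted p under 0.05, and the median log2 fold change was 0.00. These include the termination factor GSPT1 (-0.17, SE 0.08), the deadenylase subunit PAN3 (0.15, SE 0.09), ATXN2 (0.30, SE 0.23) and the silencing scaffold TNRC6A (0.34, SE 0.26) in the authors' deposited table. PAIP1 and PAIP2 were the 2 members of that list that passed.

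Of the other 4 La-related genes, SSB, which codes for the La protein that binds the 3′ ends of new RNA polymerase III transcripts, fell, with a log2 fold change of -0.55 (SE 0.14, adjusted p = 0.00173) per the authors' deposited table. LARP1B (0.36, SE 0.31), LARP4B (0.14, SE 0.12) and LARP7 (-0.06, SE 0.13) did not pass in the authors' deposited table. Of 20 deadenylase genes 0 were called and 0 had an unadjusted p under 0.05 in the authors' deposited table, with a median of -0.06. With 8.11% of all genes called, a list of 20 would hold few calls, and the median mean count here was 276. The scaffold CNOT1 stood at -0.07 (SE 0.08) and the catalytic subunits CNOT7 and CNOT8 at -0.11 (SE 0.10) and -0.13 (SE 0.12) in the authors' deposited table.

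Cleavage and polyadenylation genes, terminal nucleotidyltransferases and other nuclear factors gave single calls in lists of 22, 8 and 10. Of all genes, 8.11% were called. Of 22 cleavage and polyadenylation genes, PCF11, a factor that couples cleavage to transcription termination, had, per the authors' deposited table, a log2 fold change of 0.59 (SE 0.17, adjusted p = 0.00946) and so rose. The list's median was -0.01, and 4 of its 22 genes had an unadjusted p under 0.05. The canonical poly(A) polymerase PAPOLA, in the same list, stood at -0.12 (SE 0.07, adjusted p = 0.385) per the authors' deposited table. Of 8 terminal nucleotidyltransferases, the poly(A) polymerase TENT5A rose, per the authors' deposited table, by 0.82 on the log2 scale (SE 0.23, adjusted p = 0.00572), where the uridylyltransferase TUT7 (0.73, SE 0.26) did not pass. Of the 8, 3 had an unadjusted p under 0.05. Of 10 genes for other nuclear factors that meet polyadenylated RNA, the cap-binding subunit NCBP2 rose, per the authors' deposited table, by 0.34 on the log2 scale (SE 0.10, adjusted p = 0.00780). That list's median was 0.14, and 1 of its 10 genes had an unadjusted p under 0.05.

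At the cap end, where eIF4G meets poly(A)-binding protein, 1 of 14 genes rose and 2 fell (21.4%). That stands beside 8.11% of all genes and 13.6% of those from the median count upward. The list had a median of -0.07 and a median mean count of 778, and 7 of the 14 had an unadjusted p under 0.05. In the authors' deposited table the translational repressor EIF4EBP1 had a log2 fold change of -0.25 (SE 0.04, adjusted p = 8.75e-07). The helicase cofactor EIF4H stood at -0.22 (SE 0.05, adjusted p = 0.000392) per the authors' deposited table. The helicase EIF4A2 rose by 0.67 (SE 0.17, adjusted p = 0.00160), whereas EIF4A1, its close relative, stood at 0.11 (SE 0.06, adjusted p = 0.269) per the authors' deposited table. EIF4G1, the scaffold that binds poly(A)-binding protein, stood at -0.05 (SE 0.07, adjusted p = 0.839) per the authors' deposited table.

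PABPC1 is also a TOP mRNA, the class that LARP1 holds. Of 26 other TOP transcripts outside the ribosome, PABPC4 left out as well, 9 rose and 1 fell (38.5%, with a median log2 fold change of 0.09). The non-coding host genes GAS5, SNHG1, SNHG5 and SNHG6 are among the 26, and all but SNHG5 are among those that rose. Of the 26, 17 had an unadjusted p under 0.05. The median mean count of the 26 was 4259, and 31.6% of the 1160 most abundant genes were called. The histone chaperone NAP1L1 (0.46, SE 0.04), the elongation factor subunit EEF1D (0.25, SE 0.04), the host gene GAS5 (0.24, SE 0.04) and the elongation factor EEF2 (0.19, SE 0.03) rose in the authors' deposited table. NAP1L1 had the largest rise of the 9, beside 0.48 for PABPC1. EPRS1, a tRNA synthetase, was the one that fell, at -0.20 (SE 0.07, adjusted p = 0.0288) per the authors' deposited table.

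**Figure D4:**
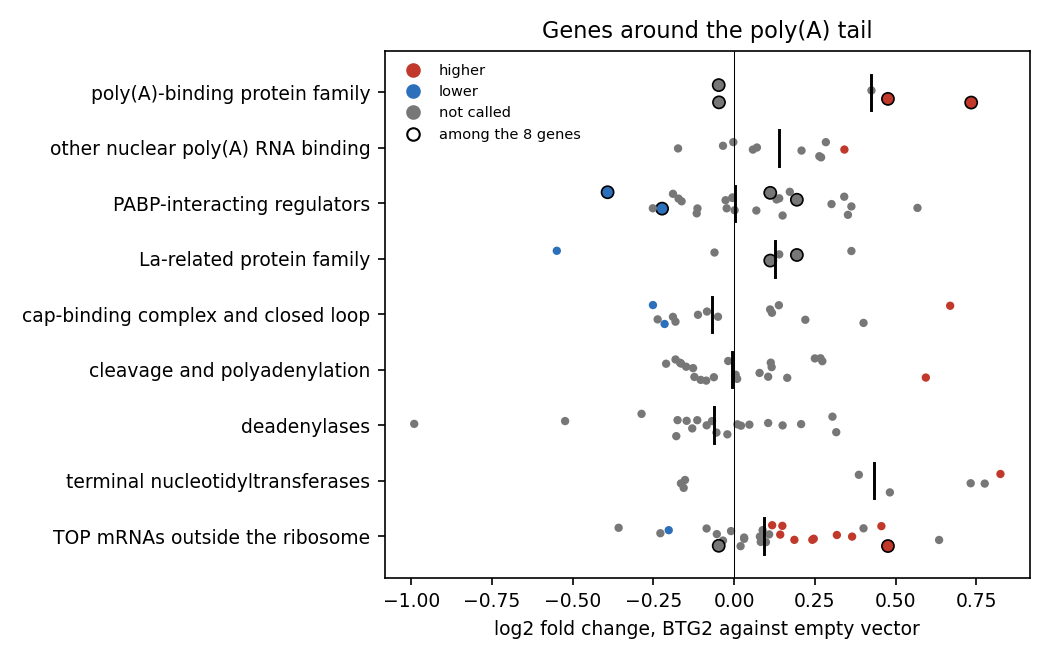
Log2 fold change (x axis) of each measured gene in 8 lists of genes around the poly(A) tail and 1 of TOP mRNAs (y axis), with black ticks at the list medians, red for genes called higher, blue for lower and grey for not called. The 8 genes are outlined in black, deadenylases hold no coloured point, and the TOP list holds 10 red points with PABPC1 and non-coding host genes included.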

How the data were processed

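Poly(A) RNA of MOLM13 cells was compared between 2 BTG2 and 2 empty-vector libraries, grouped by sample title. The authors' deposited table gives, per the file headers, a mean normalized count (a signal pooled over libraries), a log2 fold change with its standard error on the log2 scale, a test score, a p-value and an adjusted p-value for 11597 genes. The score equals the fold change over its error within 2.72e-07, and Benjamini-Hochberg adjustment of the deposited p-value over those genes returns the adjusted one within 1.48e-06. Per the submitters' processing notes, minimap2 and hg38 were used. The sources used here do not give the program, normalization or filter. The labels' protocols describe paired short reads and the design text long reads, and depth per library is unknown, so no interval or floor from counts is given.

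The members and gene lists were chosen with earlier results of these data known. Named genes are the 8 members, BTG2, relatives by symbol (PABPC, PABPN, PAIP, LARP), overlapping genes, and up to 4 called genes per list by absolute score. Cell-type markers that were called are named as well. A few genes not called (GSPT1, PAN3, ATXN2, TNRC6A, TOB1, TOB2, CNOT1, CNOT7, CNOT8, PAPOLA, TUT7, EIF4A1, EIF4G1), EPRS1 and the genes of the closing observations were added after their values were seen. Intervals are the estimate with the normal 95% range of the deposited error. Group levels were back-calculated from mean and fold change.

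Transcripts came from GENCODE release 29 (GRCh38, which is hg38), matched for 11398 genes by identifier, taking the complete coding transcript with the longest coding part. Alignments used Biopython 1.88, and Python 3.11.15 with pandas 2.3.3 and scipy 1.17.1 did the rest. Calling, level and alignment steps were tested on simulated data.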

Additional observations from a re-analysis of the deposited data

How the results depend on the processing

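The count of all called genes, 940, became 622 at an adjusted p limit of 0.01 and 74 when tested for a log2 change beyond 0.5 in size. At the limit of 0.01 PABPC1 and PABPC3 passed and 0 members were lower, although 5 of the 8 had an unadjusted p under 0.05. Against 0.5 only PABPC3 passed, leaving 1 member higher, 0 lower and 1 gene of the lists. With fold changes recentred on the median abundant gene, at -0.03 on the log2 scale, 1 member was lower, PAIP1, and PAIP2 had a value of -0.20. No member changed sign. The limit of 0.1 and abundant genes alone changed no member's call. The summed ratio of PABPC1 and PABPC3 was 0.69 with PABPC1L added and 0.71 recentred. No paired analysis was possible because the table holds no values per library, and leaving out replicates was not possible for the same reason. The standard errors limit what can be seen, from 0.04 for PABPC3 to 0.17 for LARP4.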

Other observations

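PABPC3 stood apart among genes without introns. By the transcripts used, 196 coding genes of the table had 1 exon, and PABPC3 had the highest mean count of them and the smallest p. Their median log2 fold change was -0.01, with 4 called higher and 10 lower (7.14%, beside 8.11% of all genes). Among the most abundant, CEBPA, a myeloid transcription factor with a mean count of 4405, stood at -0.26 on the log2 scale (SE 0.05) in the authors' deposited table. PCBP1, which codes for an RNA-binding protein and had a mean count of 4318, stood at -0.34 (SE 0.05) there. Of the deadenylase genes, CNOT6L had a standard error of 3.40 at a mean count of 527, and TUT1 among the nucleotidyltransferases one of 3.05 at 111, in the authors' deposited table, so their log2 fold changes carry no information on direction.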
